A study of Homo sapiens with 8 samples.

Results

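The matrix metalloproteinases MMP1, MMP2, MMP3, MMP9, MMP10 and MMP14 and the tissue inhibitors of metalloproteinases TIMP1, TIMP2 and TIMP3 were followed in the established Ewing Sarcoma line A673, with and without JIB-04, an inhibitor of Jumonji-domain histone demethylases. These 9 genes, of 65962 gene identifiers used, were taken by their symbols in the deposited table. Where a symbol had several identifiers, the identifier was to be chosen by the highest mean FPKM, but each of the 9 symbols had 1 identifier, so no measured value decided between them. The symbols themselves were chosen from earlier results of these data in which MMP3 stood out, so the rise of MMP3 is given as a description without a test. One group of 4 libraries came from A673 cells given the vehicle, DMSO, and the other group of 4 came from A673 cells given 2 μM JIB-04, both for 36 hours. All 8 libraries came from this 1 cell line in culture, so no stromal or immune cells were part of the design. FPKM, fragments scaled to transcript length and to mapped reads, lets levels of different genes be set side by side on this scale.

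Matrix metalloproteinases are zinc-dependent endopeptidases that cut collagens, laminins, proteoglycans and other proteins outside the cell. Most are secreted as inactive proenzymes and need their prodomain removed by plasmin, by furin-like proteases or by another metalloproteinase. TIMPs are small secreted proteins that block the catalytic site, and the balance of enzymes and inhibitors sets the proteolysis around a cell. In sarcomas and other tumors these genes are studied for their part in invasion, and tumor cells share their expression with stromal cells and leukocytes. Genes of the secreted enzymes are known to respond to AP-1, a dimer of FOS and JUN proteins, and to ETS factors.

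The promoters of 4 of the 9 genes (MMP10, MMP14, TIMP1 and TIMP3) were matched by symbol in the RefSeq promoter table on GRCh38.p14. The other 5 genes had no match there, so these 4 promoters are shown whatever the change of their genes. With JIB-04, MMP10, TIMP1 and TIMP3 rose and MMP14 fell. Whether any element in these promoters has a part in these changes was not tested. Capitals mark matches on either strand to TGANTCA, to TATAAA, known as the TATA box, or to GGGCGG, known as the GC box. TGANTCA is a loose form of the AP-1 element, with any base as N, and is its own reverse complement. GGGCGG is printed as its reverse complement where it lies on the other strand. Each run is the part of the window that lies before the annotated exons, read 5′ to 3′ on the strand of the gene. They lie at chr11:102780629-102780878 on the minus strand for MMP10, at chr14:22836335-22836556 on the plus strand for MMP14, at chrX:47582186-47582312 on the plus strand for TIMP1 and at chr22:32801455-32801700 on the plus strand for TIMP3.
MMP10: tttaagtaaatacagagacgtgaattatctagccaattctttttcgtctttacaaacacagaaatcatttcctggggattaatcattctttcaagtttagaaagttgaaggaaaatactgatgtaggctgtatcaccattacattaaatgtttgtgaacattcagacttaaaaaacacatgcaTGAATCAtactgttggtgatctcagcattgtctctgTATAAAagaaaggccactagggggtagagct
MMP14: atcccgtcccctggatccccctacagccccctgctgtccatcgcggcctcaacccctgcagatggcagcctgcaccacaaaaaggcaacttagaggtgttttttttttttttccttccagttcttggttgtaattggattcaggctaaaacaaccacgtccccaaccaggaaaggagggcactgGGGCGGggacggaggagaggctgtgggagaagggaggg
TIMP1: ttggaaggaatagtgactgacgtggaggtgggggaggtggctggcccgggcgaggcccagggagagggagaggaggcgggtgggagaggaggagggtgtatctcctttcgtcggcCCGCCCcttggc
TIMP3: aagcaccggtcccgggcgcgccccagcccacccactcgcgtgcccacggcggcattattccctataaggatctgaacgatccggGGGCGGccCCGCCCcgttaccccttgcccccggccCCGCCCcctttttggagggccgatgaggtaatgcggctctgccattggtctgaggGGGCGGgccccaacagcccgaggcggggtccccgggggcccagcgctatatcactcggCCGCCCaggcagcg

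In the MMP10 promoter the match to the loose AP-1 pattern, TGAATCA with A as N, began at -67 and the TATA box at -31. Positions are counted from the RefSeq start with -1 as the last base before it. MMP14 held 1 GC box, at -66, TIMP1 held 2, at -135 and -45 (the latter beyond the run shown), and TIMP3 held 5, and none of these 3 held the AP-1 or TATA letters in its window. Over windows from 250 bases before to 50 bases after the start, 7.71% of 35116 RefSeq promoters held TGANTCA, 11.5% held TATAAA and 45% held GGGCGG. Of 11 further MMP and TIMP promoters matched in the table, MMP7 and MMP20 also held TGANTCA together with TATAAA, at -67 and -30 in MMP7 and at -112 and -72 in MMP20. A match is a description of the letters and no measurement of binding.

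MMP3 and MMP10, the stromelysins, are close relatives, and an identical run of their coding sequences is shown because reads within it would fit both. It lies in exon 3 of each gene, at chr11:102842434-102842529 in MMP3 and at chr11:102779216-102779311 in MMP10 on GRCh38, both on the minus strand, and it measures 96 bases of coding sequences of 1431 and 1428 bases.
MMP3 and MMP10: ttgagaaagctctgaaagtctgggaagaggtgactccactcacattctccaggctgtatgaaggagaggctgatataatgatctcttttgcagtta

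Reads that fell wholly within this run could not be assigned to either gene by sequence. The sample labels describe reads longer than the run and the methods of the study describe shorter ones, so whether any read was of that kind is not settled here. Of the 50-base windows of their transcripts, 2.88% in MMP3 and 3.36% in MMP10 were shared with the other gene, and none was shared with another gene in MMP1, MMP9, MMP14, TIMP1 or TIMP3. Exons of WTAPP1, a pseudogene on the opposite strand, covered 7.61% of the exonic bases of MMP1 and 1.56% of those of MMP3, and WTAPP1 itself was at 0.0189 to 0.221 FPKM in vehicle and 0.0209 to 1.24 FPKM under JIB-04. The antisense gene SLC12A5-AS1 covered 18.4% of the exonic bases of MMP9 and was at 1.10 to 1.40 FPKM in vehicle and 0.124 to 0.534 FPKM under JIB-04. The libraries were directional, but the sources used here do not say whether strand was used in the calculation of FPKM, so reads of MMP9 and of its antisense partner may not have been told apart.

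The groups were compared with limma on log2(FPKM + 0.5) in 17460 genes whose mean over all libraries reached 1 FPKM, and a gene passed at a Benjamini-Hochberg adjusted p under 0.05. mRNAs of the mitochondrial genome took 9.60% to 10.2% of the FPKM total in vehicle libraries and 3.60% to 4.33% under JIB-04. FPKM summed to 1346289 to 1370436 per vehicle library and to 1175407 to 1237186 per JIB-04 library, and the sources used here do not give the read depth. Rescaling to a common sum (TPM) raised the all-gene median of the log2 fold change by 0.15, from -0.07, so changes of that size are read against the shift. Each group was treated in quadruplicate, and the sources used here do not say whether these were separate cultures, so p-values measure the spread among these libraries and no more. The Ewing Sarcoma markers FLI1 (58.4 to 62.3 FPKM in vehicle, 69.4 to 74.4 FPKM with JIB-04), CD99 (1159.9 ± 30.5 and 599 ± 24.4 FPKM) and NKX2-2 (mean 151 and 88.9 FPKM) were present in every library. Of 14 such markers 10 were lower, 3 were higher and 1 did not pass the test with JIB-04, where 38.0% of all genes were lower and 34.2% higher. On TPM the falls of PAX7, STEAP1 and CAV1 did not pass (adjusted p = 0.649, 0.431 and 0.449 by limma). NR0B1, which had not passed, was higher there (log2 fold change 0.32, adjusted p = 0.00455 by limma). Of cells that also make these proteases, 10 leukocyte markers summed to 1.20 to 1.85 FPKM in vehicle and to 24.5 to 28.1 FPKM with JIB-04, and the 2 that could be tested, CD68 and ITGAM, rose. Of that sum with JIB-04, 22.2 ± 1.33 FPKM (mean ± SD, n = 4) was CD68, a lysosomal protein. The mean of ITGAM went from 0.295 to 2.39 FPKM and that of CD14 from 0.386 to 1.08 FPKM. The pan-leukocyte gene PTPRC stayed low but went from 0.0210 ± 0.00862 to 0.0475 ± 0.00931 FPKM. PTPRC and CD14 were under the filter, and their groups did not overlap. CD163, CSF1R, LYZ and MPO had higher means under JIB-04, with overlapping groups. ELANE and S100A8 were listed at 0 in every library. Fibroblast markers summed to 357 to 432 FPKM in vehicle and 383 to 427 FPKM under JIB-04, most of it THY1 (376 ± 30.2 and 355 ± 14.2 FPKM), epithelial markers to 2.44 to 2.97 and 5.08 to 6.46 FPKM, and endothelial markers to 0.559 to 1.29 and 2.13 to 2.56 FPKM. The part of these markers and of the mitochondrial share in the results was not tested.

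All 9 genes passed the filter on level. With JIB-04, 6 were higher (MMP1, MMP3, MMP9, MMP10, TIMP1 and TIMP3), 2 were lower (MMP14 and TIMP2) and MMP2 did not pass the test. MMP3 is counted among the 6 as a description, since its rise was known when the genes were chosen. Without MMP3, 5 of 8 were higher, all at least 2-fold, with MMP9 at that limit (log2 fold change 1.01 ± 0.14 SE, down to 0.90 over the alternatives). These 8 were also chosen with earlier results of these data known, so leaving out MMP3 does not make the counts a test. Over all genes tested 72.2% passed in either direction, 34.2% higher and 38.0% lower. All 6 higher genes were at least 2-fold higher, as were 13.1% of all genes, and of the 2 lower genes MMP14 was at least 2-fold lower, as were 11.8% of all genes. The libraries of the groups did not overlap in any of these 8 genes, against 67.3% of all genes (31.9% with JIB-04 higher and 35.4% with JIB-04 lower). Over the 9 genes the log2 fold changes had a median of 1.52, MMP3 included, and over all genes one of -0.07. On TPM the count was 7 higher, with MMP2 added, and 2 lower, against 40.4% and 31.1% of all genes. In bulk samples such as these, fewer cells making a transcript and less of it per cell cannot be told apart.

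**Figure D1:**
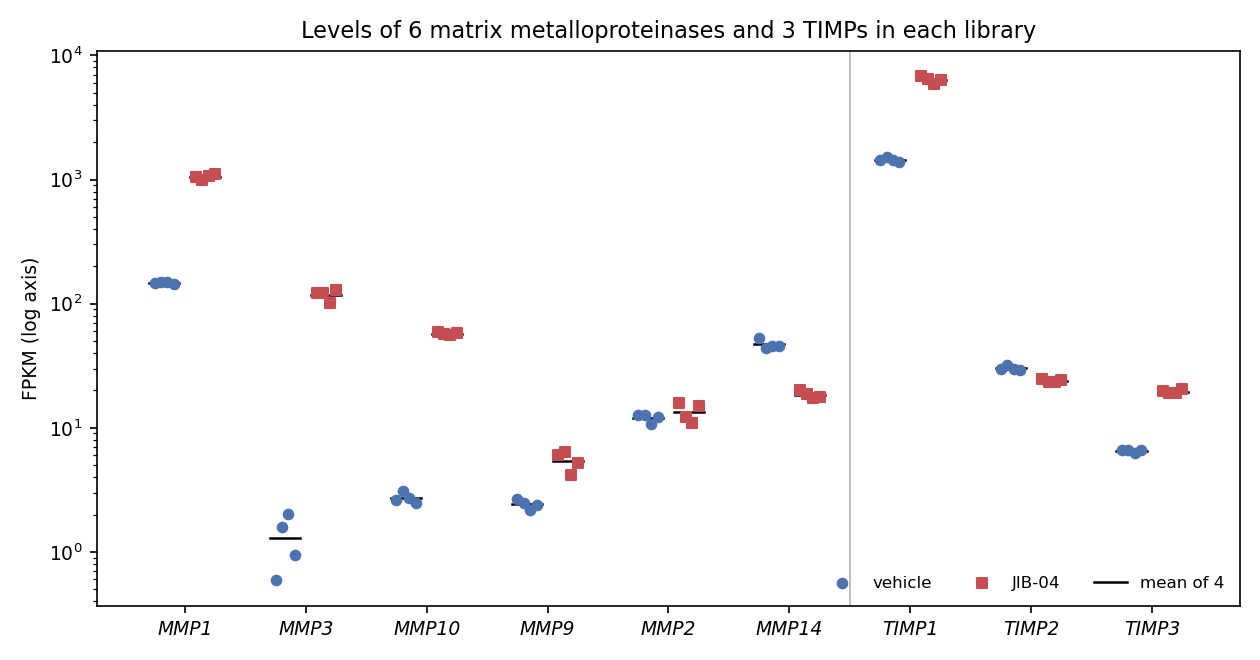
FPKM of each gene in each library on a log axis, with vehicle libraries as circles, JIB-04 libraries as squares and bars at the mean of 4. The groups lie apart in all genes but MMP2, MMP3 moves from a mean of 1.28 to 118 FPKM, and MMP14 and TIMP2 are the genes whose JIB-04 libraries lie below vehicle.

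MMP1, the interstitial collagenase, which makes the first cut in fibrillar collagens, was the most abundant metalloproteinase of the 6 under both conditions. MMP1 (ENSG00000196611, chr11:102789920-102798160, minus strand) was at 146, 151, 149 and 143 FPKM in the vehicle libraries and at 1044, 993, 1063 and 1106 FPKM in the JIB-04 libraries. Each JIB-04 library was several times above every vehicle library, and libraries of a group lay close together. The group means of 147 ± 3.47 and 1051 ± 47.1 FPKM (mean ± SD of 4 libraries each) gave a ratio of 7.15, with a log2 fold change of 2.83 ± 0.04 (SE, adjusted p = 2.38e-10 by limma).

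MMP3 and MMP10, stromelysins 1 and 2, cut proteoglycans, laminin and fibronectin and activate other proenzymes, and both went from among the lowest ranks of the 9 genes to the 3rd and 4th rank. MMP3 (ENSG00000149968, chr11:102835801-102843803, minus strand) was at 0.589, 1.58, 2.02 and 0.953 FPKM in the vehicle libraries and at 122, 121, 101 and 128 FPKM in the JIB-04 libraries. The vehicle libraries differed among themselves by over 3-fold at this low level, and every JIB-04 library was far above them. The means were 1.28 ± 0.636 and 118 ± 11.5 FPKM, a ratio of 91.9, and after log2(FPKM + 0.5), where the added 0.5 damps the change of a gene this low, the difference was 6.12 with a standard error of 0.23. By that value MMP3 ranked 3rd from the highest of all genes tested, and its log2 fold change ran from 5.74 to 6.54 over the processing alternatives.

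MMP10 (ENSG00000166670, chr11:102770503-102780628, minus strand) was at 2.60, 3.10, 2.73 and 2.48 FPKM in the vehicle libraries and at 58.6, 57.1, 55.9 and 58.0 FPKM in the JIB-04 libraries. The JIB-04 libraries were the most uniform of the 9 genes relative to their mean. From 2.73 ± 0.267 to 57.4 ± 1.17 FPKM the ratio was 21.1, with a log2 fold change of 4.17 ± 0.07 (SE, adjusted p = 5.33e-10 by limma), rank 51 from the highest. MMP3 lay below MMP10 in each vehicle library, at 0.226 to 0.740 of it, and above it in each JIB-04 library, at 1.81 to 2.20 times its level.

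The gelatinases MMP2 and MMP9, which degrade denatured collagen and the type IV collagen of basement membranes, gave unlike results: MMP9 rose and MMP2 did not pass the test, though the difference between them was not itself tested. MMP9 (ENSG00000100985, chr20:46008908-46016561, plus strand) was at 2.65, 2.48, 2.19 and 2.39 FPKM in the vehicle libraries and at 6.02, 6.44, 4.14 and 5.16 FPKM in the JIB-04 libraries. The JIB-04 libraries spread widely but did not reach down to vehicle, and the means of 2.43 ± 0.192 and 5.44 ± 1.02 FPKM gave a log2 fold change of 1.01 ± 0.14 (SE, adjusted p = 0.000128 by limma). MMP9 was thus the lowest of the 9 genes with JIB-04.

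MMP2 (ENSG00000087245, chr16:55389700-55506691, plus strand) was at 12.6, 12.8, 10.7 and 12.3 FPKM in the vehicle libraries and at 16.0, 12.3, 10.8 and 14.8 FPKM in the JIB-04 libraries. The groups overlapped, with JIB-04 libraries both within and above the vehicle range. At 12.1 ± 0.975 and 13.5 ± 2.33 FPKM the log2 fold change was 0.14 ± 0.12 (SE, adjusted p = 0.328 by limma), and on TPM it was 0.30 (adjusted p = 0.0429 by limma).

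MMP14, a membrane-type metalloproteinase that cuts collagen at the cell surface and activates pro-MMP2 with TIMP2 as its bridge, was the metalloproteinase of the 6 that fell. MMP14 (ENSG00000157227, chr14:22836557-22849027, plus strand) was at 53.4, 43.5, 45.4 and 45.3 FPKM in the vehicle libraries and at 20.1, 18.7, 17.4 and 17.6 FPKM in the JIB-04 libraries. Every JIB-04 library was below every vehicle library by a wide margin. From 46.9 ± 4.40 to 18.5 ± 1.25 FPKM the ratio was 0.394, with a log2 fold change of -1.32 ± 0.08 (SE, adjusted p = 4.19e-07 by limma), and the value ran from -1.36 to -1.15 over the alternatives. The ratio of MMP14 to its substrate MMP2 went from 3.41 to 4.26 in vehicle to 1.18 to 1.61 with JIB-04, without overlap.

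TIMP1, a secreted inhibitor of most soluble metalloproteinases and a weak one of MMP14, was the most abundant of the 9 genes in every library. TIMP1 (ENSG00000102265, chrX:47582313-47586789, plus strand) was at 1436, 1508, 1432 and 1386 FPKM in the vehicle libraries and at 6824, 6432, 5884 and 6305 FPKM in the JIB-04 libraries. The lowest JIB-04 library was well above the highest vehicle library. The means of 1440.3 ± 50.6 and 6361 ± 387 FPKM gave a ratio of 4.42 and a log2 fold change of 2.14 ± 0.05 (SE, adjusted p = 1.97e-09 by limma).

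TIMP2 and TIMP3 moved in opposite directions. TIMP3 (ENSG00000100234, chr22:32801701-32863043, plus strand), which binds to the matrix and also inhibits the sheddase ADAM17, was at 6.59, 6.64, 6.24 and 6.62 FPKM in the vehicle libraries and at 19.8, 19.1, 19.0 and 20.5 FPKM in the JIB-04 libraries. Libraries of a group lay within about 1 FPKM of their mean, and the mean went from 6.52 ± 0.189 to 19.6 ± 0.681 FPKM with a log2 fold change of 1.52 ± 0.06 (SE, adjusted p = 3.97e-08 by limma). TIMP2 (ENSG00000035862, chr17:78852977-78925387, minus strand), the partner of MMP14 in the activation of MMP2, was at 30.0, 32.0, 29.5 and 29.1 FPKM in the vehicle libraries and at 24.6, 23.4, 23.5 and 24.2 FPKM in the JIB-04 libraries. The groups stood apart by a small margin. From 30.1 ± 1.27 to 23.9 ± 0.581 FPKM the log2 fold change was -0.33 ± 0.05 (SE, adjusted p = 0.000328 by limma), and on TPM it was -0.16 (adjusted p = 0.0137 by limma), a size close to the shift of all genes under that scaling. The ratio of TIMP3 to TIMP2 was 0.208 to 0.227 in vehicle and 0.803 to 0.845 with JIB-04.

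Between libraries of a group the SD was 2.36% of the mean in MMP1, 3.51% in TIMP1 and 2.90% in TIMP3 for vehicle, against 49.6% in MMP3, the lowest of the 9 genes there. With JIB-04 it was 2.04% in MMP10 and 9.72% in MMP3, and the widest spreads were 18.7% in MMP9 and 17.3% in MMP2. Rescaled to TPM, the log2 fold changes were 4.26 in MMP10, 2.31 in TIMP1, 1.65 in TIMP3, 1.11 in MMP9 and -1.15 in MMP14, each moved upward, as was the median of all genes.

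Ordered by FPKM in vehicle, TIMP1 was highest, followed by MMP1, MMP14, TIMP2, MMP2, TIMP3, MMP10, MMP9 and MMP3. Among neighbors in that order the library ranges overlapped for MMP10 and MMP9 and for no other pair. With JIB-04 the order was TIMP1, MMP1, MMP3, MMP10, TIMP2, TIMP3, MMP14, MMP2 and MMP9, with overlapping ranges for TIMP3 and MMP14 and for no other neighbors. MMP14 thus went from 3rd to 7th place and MMP3 from last place to 3rd.

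The summed level of the 6 metalloproteinases was 206 to 218 FPKM in vehicle and 1208 to 1329.8 FPKM under JIB-04, 5.95 times as high by the means of 212 ± 4.88 and 1264 ± 50.3 FPKM. The 3 TIMPs summed to 1421 to 1547 FPKM in vehicle and 5926 to 6868 FPKM under JIB-04, 4.34 times as high, so TIMP transcripts outnumbered those of the 6 enzymes per length under both conditions. The ratio of the enzyme sum to the TIMP sum was 0.138 to 0.148 in vehicle (0.144 ± 0.00399) and 0.184 to 0.211 with JIB-04 (0.198 ± 0.0144), and the groups did not overlap. With all 23 annotated MMP genes over the 4 TIMPs, the ratio was 0.152 to 0.168 in vehicle and 0.189 to 0.216 with JIB-04.

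Within the sums, MMP1 made up 69.2% ± 1.55 of the 6 enzymes in vehicle and 83.2% ± 1.21 with JIB-04 (mean ± SD, n = 4 per group). MMP14 was the next largest in vehicle, at 20.3% to 24.5%, and was 1.32% to 1.59% with JIB-04. MMP3 went from 0.271% to 0.952% of the sum in vehicle to 8.10% to 10.0% with JIB-04. MMP10 went from 1.20% to 1.45% up to 4.36% to 4.73%, and the gelatinases took smaller shares, MMP2 from 5.03% to 5.97% down to 0.865% to 1.26% and MMP9 from 1.03% to 1.22% down to 0.331% to 0.533%. The share of MMP9 was lower although its FPKM rose. TIMP1 was 97.5% to 97.6% of the 3 TIMPs in vehicle and 99.3% to 99.4% with JIB-04, so the TIMP sum was nearly that of TIMP1.

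**Figure D2:**
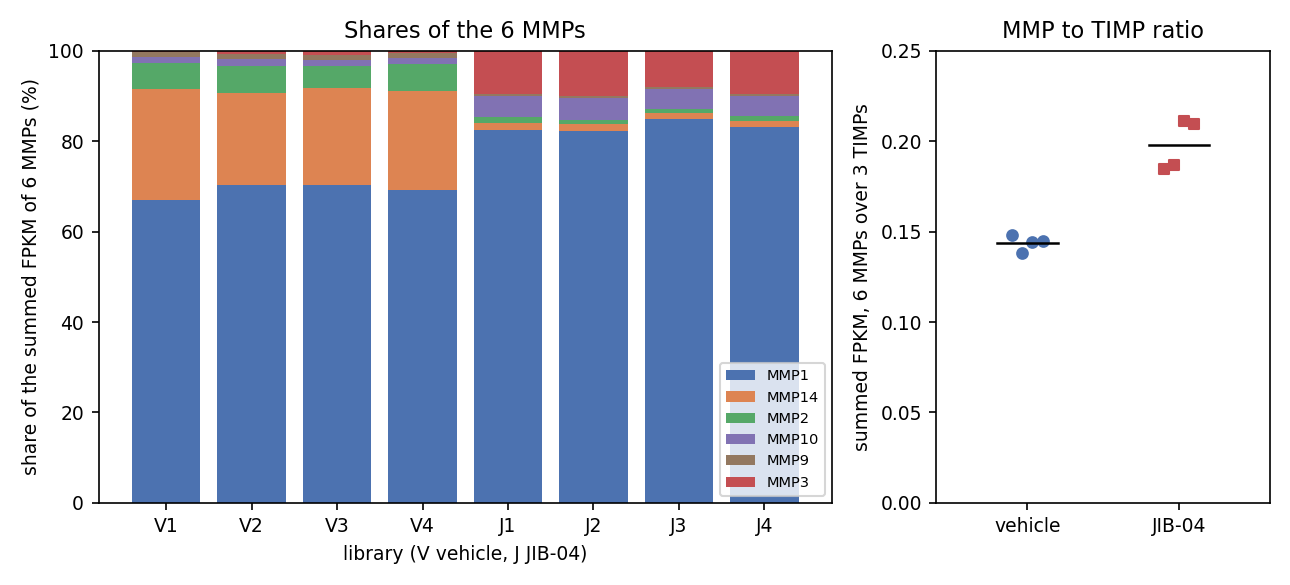
Left, the share of each of the 6 metalloproteinases in their summed FPKM, in percent, in each vehicle (V) and JIB-04 (J) library. Right, the ratio of the summed FPKM of the 6 metalloproteinases to that of the 3 TIMPs, with a point per library and bars at the mean of 4. MMP14 shrinks from 20.3% to 24.5% down to 1.32% to 1.59%, and the ratio goes from a mean of 0.144 to 0.198.

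MMP1, MMP3 and MMP10 lie together in a cluster of 9 metalloproteinase genes on chromosome 11q22, from 102520508 to 102955734 of GRCh38 (435 kb), all on the minus strand in the order MMP7, MMP20, MMP27, MMP8, MMP10, MMP1, MMP3, MMP12 and MMP13. Of the 9, 6 were higher in every JIB-04 library than in every vehicle library, and 5 of 8 without MMP3. Only 4 of the 9 passed the filter on level, and the 6 include MMP7 and MMP13, which did not. The share with JIB-04 higher, 31.9%, covers only genes that passed that filter, so it is not a like measure for this count. MMP12, the macrophage elastase, is next to MMP3 and went from 0.226 ± 0.0727 to 4.07 ± 0.215 FPKM (mean ± SD of 4 libraries each, log2 fold change 2.66 ± 0.14 SE, adjusted p = 1.68e-07 by limma). Its level with JIB-04 alone took it past the filter, so it could only be called higher.

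At the ends of the cluster, MMP7 (matrilysin) and MMP13 (collagenase 3) had means of 0.0356 ± 0.0443 and 0.166 ± 0.0749 FPKM in vehicle and of 1.01 ± 0.231 and 1.24 ± 0.289 FPKM under JIB-04. They were under the filter on the mean of all libraries and are given without a test. MMP8, the neutrophil collagenase, lies between MMP7 and MMP10 and was at 0.172 ± 0.0946 FPKM in vehicle and 0.200 ± 0.144 FPKM under JIB-04, with overlapping groups. MMP27 was at 0 in vehicle and at 0.0314 FPKM under JIB-04, and MMP20, the tooth enamel enzyme, was listed at 0 in every library. The genes of the cluster therefore spanned levels from 0 to 1051 FPKM with JIB-04.

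Of 10 genes listed on either side of the cluster, 7 were tested, 5 were higher, none was lower and TMEM123 and PDGFD did not pass the test, where 34.2% of all genes were higher. The count was 4 with the replicate block, with quantile normalization and when 6 of the 8 libraries were each left out in turn, and the weakest call was YAP1, a coactivator of the Hippo pathway (log2 fold change 0.13, adjusted p = 0.0418 by limma). TMEM123, the nearest of them before MMP7, was at 227 ± 26.7 and 221 ± 13.5 FPKM. DCUN1D5, the nearest after MMP13, went from 147 ± 1.66 to 181 ± 3.38 FPKM (log2 fold change 0.30 ± 0.03 SE, adjusted p = 2.73e-05 by limma). The median log2 fold change of the 7 was 0.30 against -0.07 for all genes, and that of BIRC3, the largest of them, was 1.40.

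**Figure D3:**
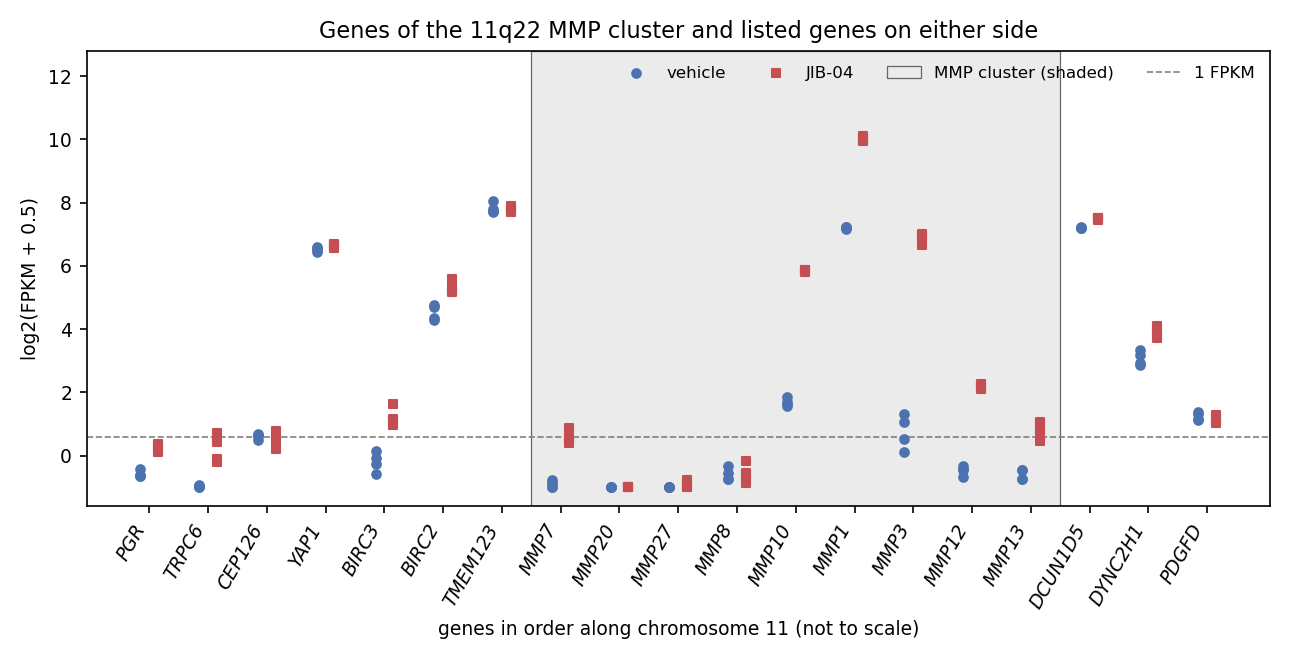
log2(FPKM + 0.5) in each library for the 9 genes of the metalloproteinase cluster on chromosome 11 (shaded) and 10 listed genes beside it, in chromosomal order and not to scale, with vehicle as circles, JIB-04 as squares and a dashed line at 1 FPKM. MMP7, MMP10, MMP1, MMP3, MMP12 and MMP13 have squares above all circles, while MMP20, MMP27 and MMP8 stay near the bottom and TMEM123 and PDGFD overlap.

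MMP12, and likewise MMP19, MMP25, THBS1, PLAT, ADAMTS6, ADAMTS15, ETS1, BIRC3, CD68 and ITGAM, were under 1 FPKM in vehicle and passed the filter through their level with JIB-04, so their calls could only be rises. Conversely, ADAM28 was under 1 FPKM with JIB-04 and passed the filter through its level in vehicle, so its call could only be a fall. Those calls are part of the counts of their lists. Beside the counts of the lists that follow, 34.2% of all genes tested were higher and 38.0% lower.

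Of the 17 other MMP genes, 7 passed the filter on level and 10 did not, and 3 of these (MMP20, MMP26 and MMP28) were listed at 0 in every library. MMP12, MMP19 and MMP25 were higher with JIB-04, MMP11 and MMP17 were lower, and MMP15 and MMP16 did not pass the test, with a median log2 fold change of 0.33. MMP11 (stromelysin 3), which furin activates inside the cell, went from 6.70 ± 1.05 to 1.37 ± 0.269 FPKM (log2 fold change -1.94 ± 0.15 SE, adjusted p = 2.07e-06 by limma). MMP17, which is tethered to the membrane by a lipid anchor, went from 15.4 ± 3.21 to 6.53 ± 1.88 FPKM (log2 fold change -1.20 ± 0.21 SE, adjusted p = 0.000588 by limma). MMP25, also lipid anchored, went from 0.129 ± 0.0785 to 2.24 ± 0.659 FPKM (log2 fold change 2.10 ± 0.22 SE, adjusted p = 1.9e-05 by limma), a call that could only be a rise. The membrane enzymes MMP15 and MMP16, relatives of MMP14, had log2 fold changes of 0.18 and 0.33 (adjusted p = 0.387 and 0.0771 by limma), and on TPM MMP16 passed at 0.43 (adjusted p = 0.0206 by limma).

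Genes on the opposite strand share exons with some of these genes, and strand use in the FPKM is not stated. MMP25 shares 35.2% of its exonic bases with MMP25-AS1, and MMP19 shares 17.4% with TMEM198B. MMP11 shares 4.21% with CHCHD10, which was at 138 to 165 FPKM in vehicle and 35.2 to 46.2 FPKM under JIB-04, and whether it touches the value of MMP11 was not tested. The 6 enzymes followed here were 87.4% to 90.4% of the summed FPKM of all 23 MMP genes in vehicle and 97.5% to 98.1% with JIB-04.

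Of 6 other inhibitors of metalloproteinases, 5 were tested, 2 were higher and 3 were lower. TIMP4, the remaining TIMP, was at 14.1 ± 0.419 FPKM in vehicle, above TIMP3, and at 1.65 ± 0.122 FPKM under JIB-04 (log2 fold change -2.77 ± 0.08 SE, adjusted p = 7.64e-09 by limma). RECK, a membrane-anchored inhibitor, had a log2 fold change of -0.50 (adjusted p = 0.00124 by limma), and A2M, a plasma protease trap, went from 4.58 ± 1.21 to 1.51 ± 0.249 FPKM (log2 fold change -1.32, adjusted p = 0.00015 by limma). TFPI2, a Kunitz-type inhibitor of plasmin and some metalloproteinases, went from 3.24 ± 1.14 to 25.5 ± 1.66 FPKM (log2 fold change 2.85 ± 0.21 SE, adjusted p = 1.87e-06 by limma). THBS1 (thrombospondin 1), a matrix protein that binds MMP2 and MMP9, went from 0.128 ± 0.0844 to 6.61 ± 1.21 FPKM (log2 fold change 3.50 ± 0.17 SE, adjusted p = 1.18e-07 by limma). Since it passed the filter through its level with JIB-04, THBS1 could only be called higher. Of the 4 TIMPs, TIMP1 and TIMP3 were higher and TIMP2 and TIMP4 were lower.

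Plasmin removes the prodomain of MMP1, MMP3 and MMP10, and genes of the plasminogen system, activators and inhibitors alike, were mostly higher. Of 10 genes of the plasminogen system, 8 were tested, 7 were higher and PLAUR was lower, with a median log2 fold change of 1.66. Among all genes tested 34.2% were higher and 38.0% lower. PLAU, the urokinase that turns plasminogen into plasmin, went from 1.53 ± 0.0851 to 17.2 ± 1.10 FPKM (log2 fold change 3.12 ± 0.08 SE, adjusted p = 4.25e-09 by limma). SERPINB2 and SERPINE2, inhibitors of urokinase, rose as well, SERPINB2 from 7.09 ± 0.296 to 45.8 ± 2.22 FPKM (log2 fold change 2.61 ± 0.06 SE, adjusted p = 2.44e-09 by limma) and SERPINE2 with a log2 fold change of 1.60. PLAUR, the urokinase receptor, went from 29.2 ± 3.28 to 19.7 ± 2.17 FPKM (log2 fold change -0.56, adjusted p = 0.00103 by limma). PLG, plasminogen itself, was under the filter at 0.175 ± 0.0996 and 0.147 ± 0.0783 FPKM with overlapping groups.

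Proprotein convertases activate MMP14 and MMP11 inside the cell, and of 7 listed 5 were tested, FURIN and PCSK6 were higher, PCSK2 and PCSK4 were lower and PCSK7 did not pass the test. FURIN went from 80.9 ± 7.15 to 134 ± 16.8 FPKM (log2 fold change 0.72 ± 0.10 SE, adjusted p = 0.000102 by limma). The falls of PCSK2 (log2 fold change -0.17, adjusted p = 0.00601 by limma) and PCSK4 (log2 fold change -1.03, adjusted p = 0.0326 by limma) did not pass on TPM, at adjusted p = 0.889 and 0.0565 by limma, and PCSK4 overlapped between the groups.

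The ADAM and ADAMTS metalloproteinases, which TIMP3 also inhibits in part, went both ways. Of 12 ADAM genes 6 were tested, with ADAM9, ADAM10 and ADAM17 higher and ADAM15, ADAM22 and ADAM28 lower, though ADAM22 did not pass on TPM (adjusted p = 0.0530 by limma), and of 19 ADAMTS genes 5 were tested, 4 were higher and ADAMTS10 was lower. ADAM17, the enzyme that releases TNF and a target of TIMP3, went from 22.1 ± 0.925 to 63.2 ± 2.28 FPKM (log2 fold change 1.50 ± 0.05 SE, adjusted p = 1.79e-08 by limma). Cell-surface proteins that bind or dock these enzymes were split, with 4 higher and 4 lower of the 8 tested among 10 listed, and 3 lower on TPM, where CAV1 (caveolin 1) did not pass (log2 fold change -0.03, adjusted p = 0.449 by limma). CD44, the hyaluronan receptor that docks MMP9 and is cut by MMP14, went from 2.23 ± 0.282 to 13.0 ± 2.53 FPKM (log2 fold change 2.29 ± 0.14 SE, adjusted p = 5.27e-07 by limma), and LRP1, a receptor that clears metalloproteinases and their complexes with TIMPs, from 11.7 ± 1.08 to 6.19 ± 0.965 FPKM (log2 fold change -0.88 ± 0.12 SE, adjusted p = 0.000101 by limma).

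Subunits of AP-1, the factor whose loose pattern has a match in the MMP10 promoter shown, were higher with JIB-04 in 8 of 9 tested of 10 listed. Among all genes tested 34.2% were higher. JUND, at 133 ± 31.4 and 119 ± 37.8 FPKM, did not pass the test. The 9 tested had a median of 3.43 on the log2 fold change scale, against -0.07 for all genes. FOS went from 20.0 ± 0.584 to 291 ± 26.8 FPKM and JUN from 15.5 ± 1.95 to 188 ± 23.2 FPKM, with log2 fold changes of 3.82 and 3.56 (adjusted p = 5.33e-10 and 9.23e-09 by limma). FOSB had the largest value of the list at 4.19, and ATF3, FOSL2 and FOSL1 had 3.52, 3.43 and 2.86. Whether these factors bind the promoters of the 9 genes was not measured.

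ETS factors known at MMP promoters were higher in 5 of 7 tested of 8 listed, with ELK3 lower and ETV4 not passing the test, where 34.2% of all genes were higher. ETS1 went from 0.130 ± 0.0550 to 15.2 ± 0.812 FPKM (log2 fold change 4.64 ± 0.11 SE, adjusted p = 2.64e-09 by limma), and ETS2, ETV5 and ELK1 had log2 fold changes of 1.09, 0.89 and 0.81. Being under 1 FPKM in vehicle, ETS1 passed the filter through its level with JIB-04 and could only be called higher. The fall of ELK3, at -0.18 (adjusted p = 0.0387 by limma), did not pass on TPM, with -0.02 (adjusted p = 0.811 by limma).

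Among matrix proteins that these enzymes cut, 7 were higher, 8 were lower and COL4A2 did not pass the test, of 16 tested and 20 listed, with a median log2 fold change of -0.20. On TPM 8 were higher, with COL4A2 added (log2 fold change 0.33, adjusted p = 0.00621 by limma). The chains of type I collagen, one of the fibrillar collagens that MMP1 cuts, went in opposite directions: COL1A1 from 13.8 ± 1.50 to 47.1 ± 4.43 FPKM (log2 fold change 1.73 ± 0.10 SE, adjusted p = 2.91e-07 by limma) and COL1A2 from 79.3 ± 1.69 to 7.82 ± 1.20 FPKM (log2 fold change -3.27 ± 0.10 SE, adjusted p = 7.93e-09 by limma). TNC (tenascin C), a glycoprotein of remodeled matrix, went from 64.9 ± 5.10 to 354 ± 7.79 FPKM (log2 fold change 2.44 ± 0.06 SE, adjusted p = 2.46e-09 by limma).

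**Figure D4:**
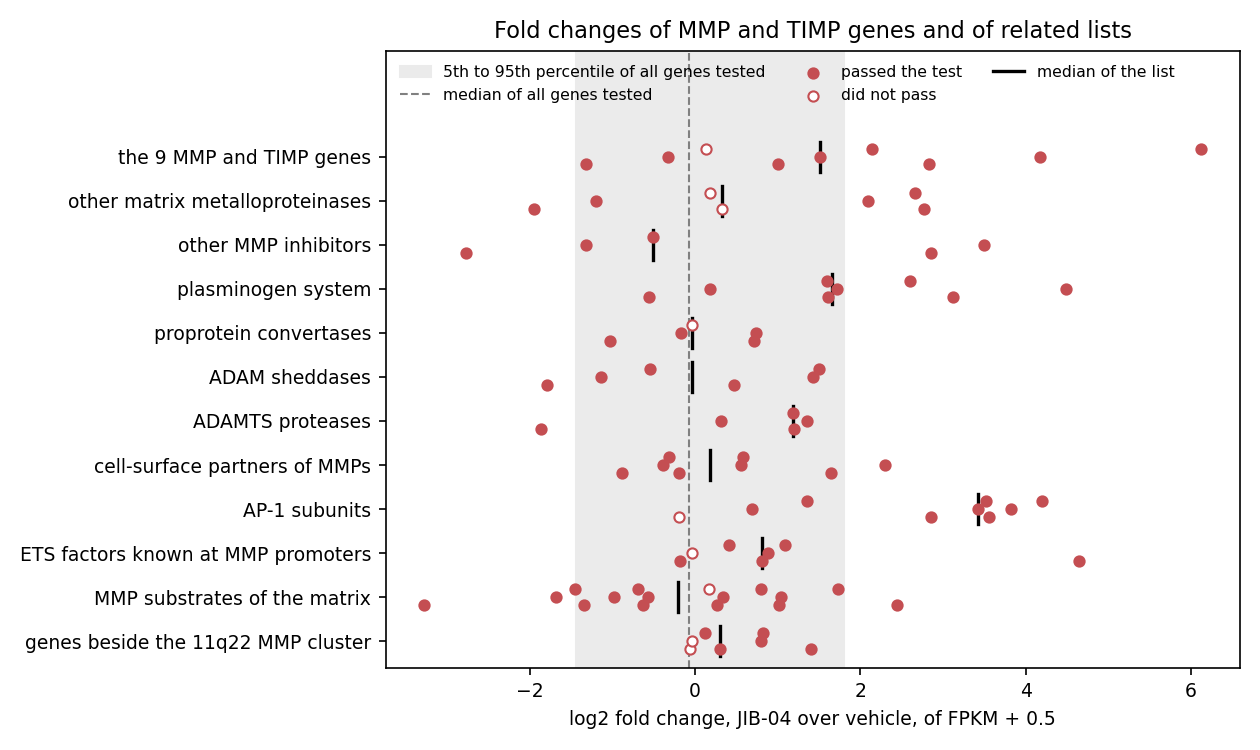
log2 fold change (JIB-04 over vehicle, FPKM + 0.5) of each gene tested in the 9 MMP and TIMP genes and in 11 related lists, with filled points for genes that passed the test, open points for those that did not, a black bar at the median of each list and a band from the 5th to the 95th percentile of all genes tested. The medians run from -0.50 for other inhibitors to 3.43 for AP-1 subunits, and MMP3 is the point farthest to the right at 6.12. The filled point of MMP3 is a description, since its rise was known when the genes were chosen.

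The genes most like MMP3 and MMP14 over the 8 libraries were ranked by Pearson correlation of log2(FPKM + 0.5) among 12044 genes whose mean reached 5 FPKM in the higher group. For MMP3 these included CYB5R2, RASGEF1B, ZDHHC5 and CDC42EP3, with r from 0.9985 to 0.9987, and for MMP14 they were CCT6P2, TRIM69, GPS1, HOXB2 and LRRC45, with r from 0.9984 to 0.9992. The 8 points form the 2 treatment groups, so 2625 genes had r over 0.95 with MMP3 and 2906 with MMP14, and the order among the top genes is a description of these libraries. Of the top genes, CYB5R2 went from 0.408 ± 0.186 to 11.2 ± 0.900 FPKM and ZDHHC5 from 54.9 ± 1.66 to 93.5 ± 1.57 FPKM, so a high r was reached at unlike sizes of change.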

How the data were processed

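mRNA was measured by RNA-seq in 8 libraries of A673 cells, 4 given vehicle and 4 given 2 μM JIB-04 for 36 hours. The submitters' processing notes name GSNAP, SAMtools and Cufflinks, with which the authors aligned reads to GRCh38 and made FPKM, and the deposited FPKM were used without further normalization. The annotation, the Cufflinks version and the read depth are not given in the sources used here. The table held 66095 entries for 65975 identifiers. Entries of the 117 identifiers with more than 1 were summed, 31 symbols stored as calendar dates were set back to gene names, and 13 identifiers with a placeholder value were left out, which left 65962.

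The 17460 genes whose mean reached 1 FPKM were fitted on log2(FPKM + 0.5) with limma 3.58.1 (R 4.3.3, trended empirical Bayes variance), with all 8 libraries and no covariate, and were called at a Benjamini-Hochberg adjusted p under 0.05. The fit was also run on simulated data in which few genes changed. Since 72.2% of genes passed in these libraries, that run does not measure false calls here. Precision came from the spread between the 4 libraries of a group, since FPKM keep no absolute depth. The 9 genes and the related lists were chosen with earlier results of these data known. Named genes were the 9, up to 4 tested genes per list by smallest adjusted p, called genes of a list whose log2 fold change reached 2 in either direction, other MMPs whose mean reached 1 FPKM, and the most similar genes. Some genes that this rule names are not reported here. Any other gene of a list, of the cluster or of the markers that the text names was chosen after its values were seen. GENCODE 29 gave coordinates, exons and transcripts, and the RefSeq table gave promoters. Results were tabulated and drawn with Python 3.11.15, pandas 2.3.3, numpy 2.4.6 and matplotlib 3.10.9. Alternatives were other pseudocounts, filters and scalings, analysis of variance of FPKM, ratios of group means, a replicate block, summed identifiers of a symbol, and leaving out each library in turn.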

Additional observations from a re-analysis of the deposited data

Results flagged for a closer look

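In 7 of the 136 groups of 4 libraries of the named genes, 1 library stood apart from the other 3 of its group by Dixon's test at the 95% level, which chance alone gives for about 1 group in 20. Among the 9 genes this was the case in TIMP3, whose vehicle replicate 3 was at 6.239 FPKM with the others at 6.59 to 6.639 FPKM, a gap that is small beside the JIB-04 libraries. MMP19 was at 1.74 FPKM in vehicle replicate 4 and at 0.2031 to 0.2935 FPKM in the other vehicle libraries, so its level in vehicle rests largely on that library. The MMP19 log2 fold change was 2.78 with all libraries and 3.18 without vehicle replicate 4. The remaining groups were ATF3 in vehicle replicate 3 (12.05 FPKM against 9.525 to 9.585 FPKM), CD44 in vehicle replicate 4 (1.811 FPKM against 2.314 to 2.416 FPKM), CLDN1 in vehicle replicate 4 (76.44 FPKM against 72.96 to 73.44 FPKM), ETV5 in JIB-04 replicate 4 (82.78 FPKM against 78.34 to 78.5 FPKM) and FURIN in vehicle replicate 1 (91.59 FPKM against 76.5 to 78.04 FPKM).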

How the results depend on the processing

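The number of genes that passed was 12604, and it was 9962 to 15516 under the other pseudocounts, filters, scalings and tests and 12060 to 12454 without any 1 library. Among the 9 genes, with MMP3 counted as a description, 6 were higher and 2 lower without any 1 library. MMP9 was not tested when a mean of 5 FPKM was required, which left 5 of the 9 genes higher, and MMP2 passed on TPM. The log2 fold changes ranged over the alternatives from 0.06 to 0.30 in MMP2, 0.90 to 1.17 in MMP9, 3.97 to 4.40 in MMP10, 2.11 to 2.67 in TIMP1, -0.34 to -0.16 in TIMP2 and 1.45 to 1.65 in TIMP3, and none of the 9 genes changed direction. Other MMPs higher with JIB-04 were 3, but 6 with no filter, 5 with the filter on the higher group and 0 where 5 FPKM was required, since most lie at low levels. MMP7 and MMP13 entered with the filter on the higher group through their level with JIB-04. Like MMP12, MMP19 and MMP25, they could only be called higher there. No share of all genes higher is given for these filters, so the counts are a description. With the replicate block 12518 genes passed, and the members' calls were the same. Libraries that share a replicate number did not deviate together, with correlations of -0.0580 to 0.0823, so the numbers were not taken to pair the samples. Changes of genes under about 1 FPKM are limited by the pseudocount and by unknown depth.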
